A study of Mus musculus with 6 samples.

Results

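Of 10 imprinted genes that regulate growth or neuronal differentiation, 3 rose in the Rp58-/- libraries of cortical neurons (7.92% of all tested genes did so), and none passed the test for less. Plagl1 rose 6.41-fold, Grb10 2.63-fold and Nnat 2.41-fold in the mutant libraries. Mest, Cdkn1c, Magel2, Peg3, Impact and Ndn did not pass the test, and Dlk1 had too few counts to be tested. The 10 genes were taken as a list of symbols, with no measured value in the rule but with earlier results of these data known, out of 34289 genes, of which 16985 were tested.

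At an imprinted gene, one parental copy is silenced by marks set in the germ line, so that RNA comes mainly from the copy inherited from the mother or from the father. Many such genes tune growth: Cdkn1c and Grb10 restrain it, Plagl1 encodes a zinc finger factor that acts at other imprinted genes and can halt the cell cycle, and Ndn, Magel2 and Peg3 act in neuronal differentiation and survival. Counts of this kind do not tell the parental copies apart, so nothing here bears on which allele was read.

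The series measured RNA by sequencing in neurons of the cortex of mouse embryos at stage E14.5, described by the submitters as postmitotic. Controls were Rp58+/+ (3 libraries) and mutants were Rp58-/- (3 libraries). Rp58, whose current symbol is Zbtb18, encodes a zinc finger repressor of transcription needed for cortical neurons to mature, and the question the design poses is how its loss alters their transcripts. The labels describe the cells as neurons and do not say how they were isolated, how the Rp58 allele was made, or whether each library stands for its own embryo. The p-values thus reflect only how these libraries vary, which may be technical. The libraries are bulk samples, in which fewer cells of a type and less RNA per cell cannot be told apart.

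Total estimated counts ranged from 34645505 to 75892649 per library. The libraries formed 2 technical sets, told apart by the effective transcript lengths that were deposited with the counts. In the fixed-length set (control 1, mutant 1, mutant 2) long transcripts all had the same number of bases subtracted, and in the estimated-length set (control 2, control 3, mutant 3) that number varied. Mitochondrially encoded genes took 3.58% to 5.15% of the counts of fixed-length libraries and 16.4% to 17.5% of those of estimated-length libraries. The labels name no such sets, and no source used here says what made them differ. Because the sets cross the genotypes unevenly, genotypes were compared with a term for the set, and the effect of leaving the term out is given beside each called gene or as a count over its list. Zbtb18 was at 1902, 1587 and 1697 CPM (counts relative to a normalized library total) in controls 1 to 3 and at 46.7, 45.7 and 538 CPM in mutants 1 to 3 (log2 fold change -3.48 ± 0.81, SE, adjusted p = 0.0337, and adjusted p = 0.400 without the set term). The Zbtb18 call was lost without control 3 (adjusted p = 0.0511), mutant 1 (0.119) or mutant 2 (0.0899). All mutant libraries were below all controls. Mutant 3 kept far more Zbtb18 RNA than mutants 1 and 2, so member values without it are given below. Mutant 3 is the only mutant of the estimated-length set. Leaving it out with the set term thus compares control 1 with mutants 1 and 2, as the fixed-length comparison does. Leaving out control 1, the only fixed-length control, likewise leaves the estimated-length comparison. Such pairs of values are not separate checks. All 8 neuron markers were detected, with a summed level of 6605 to 9462 CPM in the controls and 5091 to 7792 CPM in the mutants. Of the 8, Stmn2, Dcx, Tbr1 and Neurod6 fell and Rbfox3 rose, and none of these 5 was called without the set term (adjusted p 0.117 to 0.996).

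Across all genes, 14.9% of the 16985 tested were called at an adjusted p under 0.05, with 7.92% higher and 7.01% lower in the mutants. Among the 9 tested imprinted growth regulators, 3 were called, all higher. Their median log2 fold change was 0.16, beside -0.00081 over all genes tested. The mutant and control libraries did not overlap for 4 of the 9, namely Plagl1, Grb10 and Nnat with mutants above and Cdkn1c with mutants below, where 15.4% of all tested genes had groups that did not overlap. Without the set term 2 of the 9 were called, Plagl1 and Grb10, beside 2.36% of all genes. Inside the fixed-length set Plagl1 and Grb10 were called (2 of 9, beside 9.46% of all genes), and inside the estimated-length set Nnat and Cdkn1c were called as well (4 of 9, beside 7.92%).

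The DNA just before the start sites of the 3 genes that rose is printed here from RefSeq (GRCm38.p6), 5′ to 3′ on the strand of the gene, because RP58 is known to bind DNA at a short element whose core reads ACATCTG. The windows show annotated starts only. Both strands were searched for ACATCTG and for the shorter CATCTG, which every ACATCTG contains. Capitals mark a match. The Plagl1 window (chr10:13090582-13090787, plus strand) is cut to 206 bases, since a coding model of the gene begins 44 bases before the RefSeq start; the other windows reach the RefSeq start. The Grb10 windows lie on the minus strand before the upstream start (chr11:12037421-12037670) and before an internal start (chr11:12027972-12028221). The Nnat window (chr2:157559828-157560077, plus strand) lies within the span of Blcap.
Plagl1: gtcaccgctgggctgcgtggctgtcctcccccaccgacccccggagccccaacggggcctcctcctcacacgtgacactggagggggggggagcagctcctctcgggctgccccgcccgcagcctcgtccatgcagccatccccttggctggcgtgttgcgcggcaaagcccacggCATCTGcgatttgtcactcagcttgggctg
Grb10 upstream: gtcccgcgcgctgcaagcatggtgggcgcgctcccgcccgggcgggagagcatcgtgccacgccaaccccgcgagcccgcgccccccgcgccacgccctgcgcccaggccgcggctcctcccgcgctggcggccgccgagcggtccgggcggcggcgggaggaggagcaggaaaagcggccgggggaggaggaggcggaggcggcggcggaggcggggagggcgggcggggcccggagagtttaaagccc
Grb10 internal: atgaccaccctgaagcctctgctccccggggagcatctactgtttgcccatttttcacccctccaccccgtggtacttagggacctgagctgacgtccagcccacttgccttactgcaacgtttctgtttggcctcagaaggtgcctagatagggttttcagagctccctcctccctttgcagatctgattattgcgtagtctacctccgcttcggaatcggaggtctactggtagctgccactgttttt
Nnat: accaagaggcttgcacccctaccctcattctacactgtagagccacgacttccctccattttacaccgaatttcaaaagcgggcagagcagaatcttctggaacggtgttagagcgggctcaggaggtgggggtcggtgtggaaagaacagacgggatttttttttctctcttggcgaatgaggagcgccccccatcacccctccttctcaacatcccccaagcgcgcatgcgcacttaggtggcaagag

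The Plagl1 window held 1 CATCTG, with its first base 74 bases before the RefSeq start, which lies past the end of the printed stretch. Neither Grb10 window nor the Nnat window held these letters. RefSeq windows were counted for 8 of the 10 genes, with 11 windows in all, and ACATCTG occurred in 0 of them and CATCTG in 1. Cdkn1c and Impact were not among the 8, and windows on chromosome 18, where Impact lies, were left out of the count. The search used the full 250 bases before each RefSeq start. Among 32851 mouse promoter windows of that length, 3.71% held ACATCTG and 14.4% held CATCTG. The full Plagl1 window was 70.4% G and C, the upstream Grb10 window 81.2%, the internal one 54.0% and the Nnat window 54.8%, beside a median of 52.4% over all windows.

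Plagl1, also known as Zac1, encodes a zinc finger transcription factor read from the paternal copy. Its levels were 56.5, 49.8 and 50.5 CPM in the controls and 451, 391 and 277 CPM in the mutants. The controls lay close together in both technical sets, and every mutant library was far above them. Mean levels were 52.3 ± 3.68 CPM in the controls and 373 ± 88.7 CPM in the mutants (SD, n = 3 each), a log2 fold change of 2.68 ± 0.13 (SE, edgeR quasi-likelihood test, adjusted p = 6.82e-05). Within the fixed-length set the log2 fold change was 2.90 ± 0.17 and within the estimated-length set it was 2.46 ± 0.14. Without mutant 3 it was 2.90 (adjusted p = 0.000807). On the TPM scale, which corrects for transcript length, Plagl1 ranked 3719 to 5458 among the tested genes in the controls and 500 to 986 in the mutants.

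**Figure D1:**
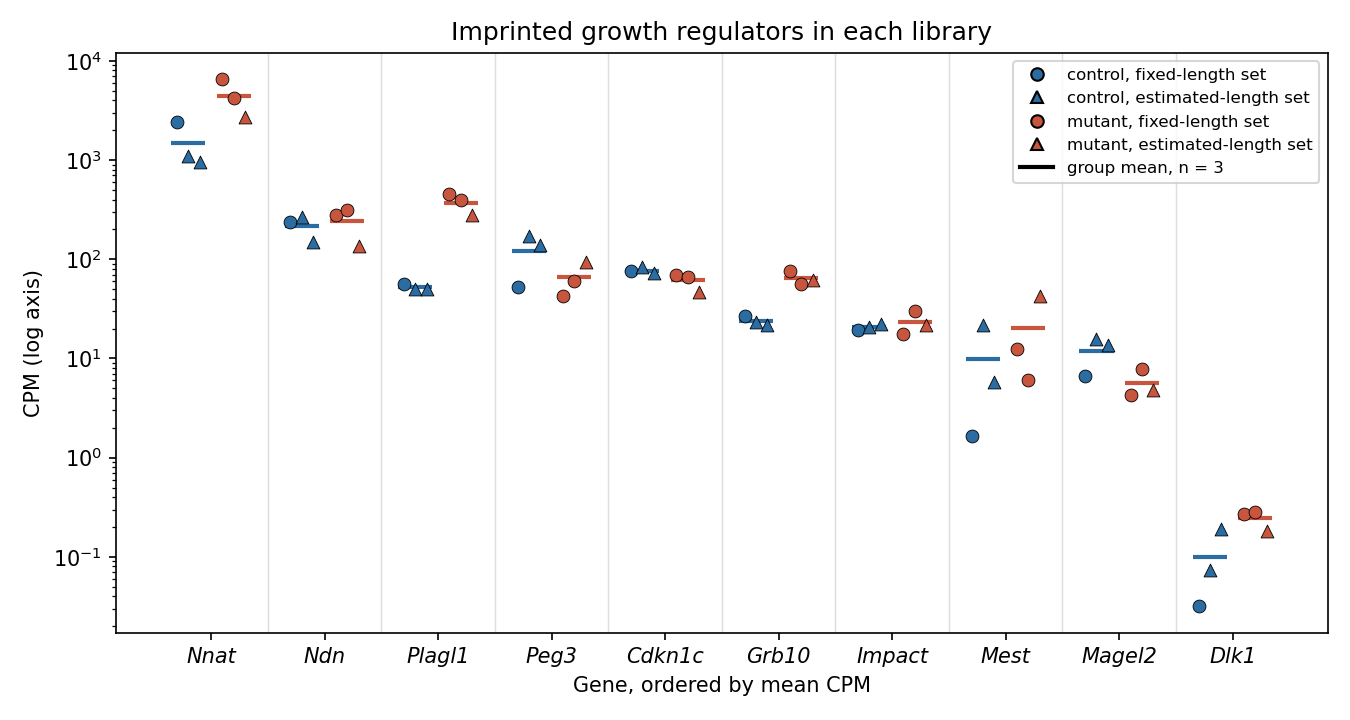
Level of each of the 10 imprinted growth regulators in every library (CPM, log axis), with controls and mutants in separate columns and marker shape giving the technical set. Horizontal bars are means of 3 libraries. The mutant points of Plagl1, Grb10 and Nnat all sit above the control points and those of Cdkn1c just below, whereas those of the other genes overlap.

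Grb10 encodes an adaptor protein that binds the insulin and IGF receptors and restrains their signal; it is read from the maternal copy in most tissues and from the paternal copy in neurons. It stood at 26.9, 23.1 and 21.5 CPM in the controls and at 76.9, 56.9 and 62.3 CPM in the mutants. The groups did not overlap, and each set showed the same order. The means were 23.9 ± 2.78 and 65.4 ± 10.4 CPM (SD, n = 3 each), with a log2 fold change of 1.40 ± 0.13 (adjusted p = 0.000904). It was 1.31 ± 0.21 among fixed-length libraries and 1.48 ± 0.19 among estimated-length libraries. Without mutant 3 it was 1.31, which repeats the fixed-length comparison.

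Nnat encodes neuronatin, a small membrane protein of the endoplasmic reticulum of neurons, read from the paternal copy. It was the most abundant of the 10 genes by TPM in every library, and ranked 22, 43 and 45 among all tested genes in the controls and 8, 9 and 20 in the mutants. Its levels were 2413, 1098 and 961 CPM in the controls and 6509, 4194 and 2698 CPM in the mutants. The lowest mutant was above the highest control, although the fixed-length libraries were the higher ones in each genotype. The means were 1491 ± 802 and 4467 ± 1920.0 CPM (SD, n = 3 each), and the log2 fold change was 1.27 ± 0.18 (adjusted p = 0.0048). The call depended on the set term and on 1 library: without the term the adjusted p was 0.371 at a log2 fold change of 1.58, and without mutant 3 it was 0.0639 at 1.15. The effect was 1.15 ± 0.27 among fixed-length libraries (adjusted p = 0.0579) and 1.39 ± 0.25 among estimated-length libraries (adjusted p = 0.0263).

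Mest encodes a hydrolase-like enzyme of the endoplasmic reticulum, read from the paternal copy. It was at 1.65, 21.96 and 5.73 CPM in the controls and at 12.3, 6.04 and 42.9 CPM in the mutants. The groups overlapped, since control 2 was above mutants 1 and 2. The log2 fold change was 1.97 ± 0.58 and missed the threshold (adjusted p = 0.0703). It passed without control 2 (2.66, adjusted p = 0.0105), and without mutant 3 it was 2.44 (adjusted p = 0.187). Mest shares 912 exonic bases with Copg2 at their 3′ ends on opposite strands. Copg2 itself, a coat protein gene, stood at 107 ± 21.4 CPM in the controls and 111 ± 16.5 CPM in the mutants (a log2 difference of -0.06, adjusted p = 0.737). Whether strand was used in the assignment of reads is not stated in the labels or headers, so reads of the shared bases could have been divided between the pair.

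Cdkn1c encodes p57, an inhibitor of cyclin-dependent kinases by which neural precursors leave the cell cycle, and is read from the maternal copy. Its levels were 75.6, 82.7 and 72.4 CPM in the controls and 69.9, 66.5 and 47.0 CPM in the mutants. The mutants lay just under the controls, with mutant 3 lowest. The means of 76.9 ± 5.29 and 61.1 ± 12.4 CPM (SD, n = 3 each) gave a log2 fold change of -0.44 ± 0.14, which missed the threshold (adjusted p = 0.0943). The fixed-length libraries gave -0.15 ± 0.13 and the estimated-length libraries -0.72 ± 0.13 (adjusted p = 0.029). In the edgeR test of a difference between sets, 0 of the 9 members passed after adjustment, beside 26 of all genes, and 2 (Cdkn1c and Magel2) had an unadjusted p under 0.05. Without mutant 3 the log2 fold change was -0.15 and without control 1 it was -0.70, which largely repeat the 2 within-set values.

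**Figure D2:**
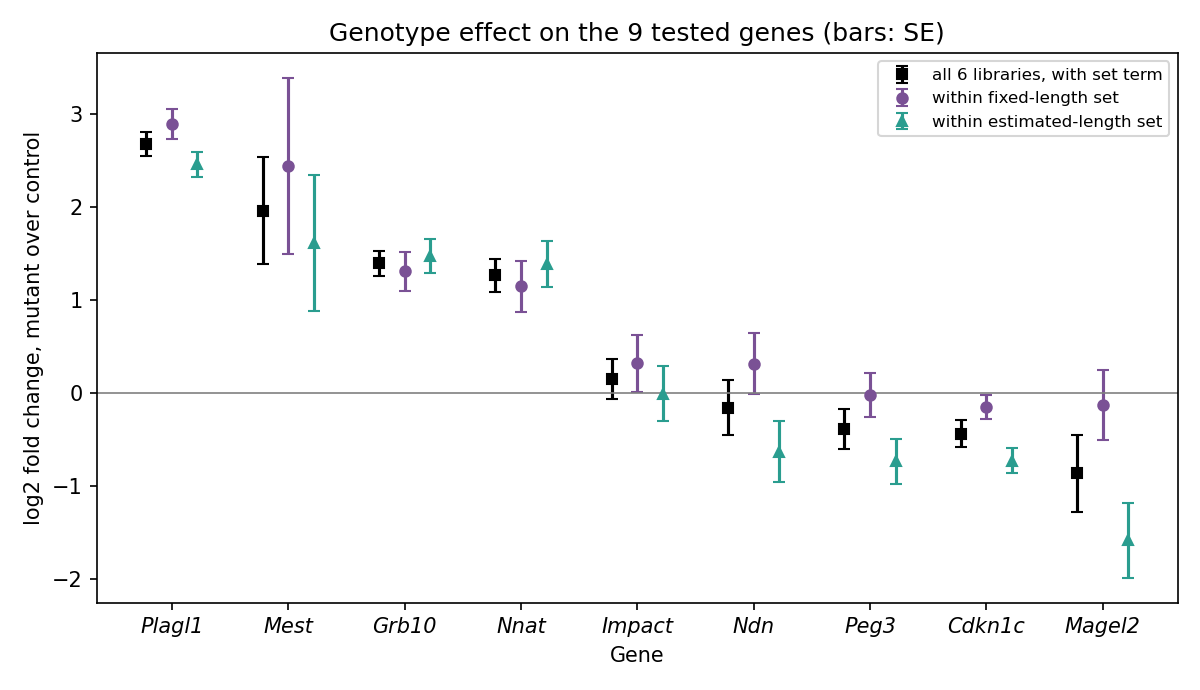
Log2 fold change of mutant against control (with SE) for the 9 tested genes, from all 6 libraries with the set term and within each technical set. Plagl1, Grb10 and Nnat lie above 0 in each estimate with bars clear of 0, as does Mest with wider bars, and the 2 sets fall on opposite sides of 0 for Ndn and Impact.

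The paternally read genes Ndn and Magel2, members of the MAGE family that lie together in the region deleted in Prader-Willi syndrome, did not pass the test. Necdin (Ndn), which holds neurons out of the cell cycle, was at 238, 265 and 151 CPM in the controls and at 280, 315 and 135 CPM in the mutants. The lowest and the highest library were both mutants. Its log2 fold change was -0.15 ± 0.30 (adjusted p = 0.781), and it changed sign between the sets, with 0.32 ± 0.32 in the fixed-length and -0.63 ± 0.33 in the estimated-length set. Magel2, which takes part in endosomal protein recycling, was at 6.64, 15.6 and 13.5 CPM in the controls and at 4.27, 7.87 and 4.84 CPM in the mutants. Mutant 2 was above control 1, and the log2 fold change of -0.86 ± 0.41 had an adjusted p of 0.219. It was -0.13 without mutant 3, and it passed without mutant 2 (-1.17, adjusted p = 0.0288).

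Peg3 encodes a zinc finger protein read from the paternal copy and linked to p53-dependent cell death. Its levels were 52.4, 171 and 141 CPM in the controls and 42.7, 60.5 and 93.8 CPM in the mutants. Control 1 lay among the mutants, and the estimated-length libraries were the higher ones in each genotype. The log2 fold change was -0.38 ± 0.22 (adjusted p = 0.297), -0.02 among fixed-length libraries and -0.73 among estimated-length libraries. It was -0.02 without mutant 3 and passed without mutant 2 (-0.54, adjusted p = 0.0434). Impact encodes an inhibitor of the stress kinase GCN2 and is read from the paternal copy. It was at 19.2, 20.99 and 22.5 CPM in the controls and at 17.7, 30.2 and 21.7 CPM in the mutants. The controls lay within the range of the mutants (log2 fold change 0.16 ± 0.22, adjusted p = 0.683).

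Dlk1 encodes a membrane protein of the delta family that restrains differentiation and is read from the paternal copy. It had 1, 5 and 8 estimated counts in the controls and 14, 15 and 9 in the mutants, or 14 against 38 in all. Control 1 was under 3 counts, the level below which a library is treated as at its floor, and the gene did not pass the filter on low counts. Scaled to library size, control 3 (0.190 CPM) was above mutant 3 (0.182 CPM), so the groups overlapped. The main fit thus did not test Dlk1. The edgeR fit without that filter included it and did not call it.

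Both technical sets gave the same sign for 7 of the 9 tested genes, the exceptions being Ndn and Impact. The share of all tested genes with the same sign was not counted. Some signs rest on values near 0, such as -0.0034 for Impact in the estimated-length set and -0.0206 for Peg3 in the fixed-length set. The set itself had a called coefficient for Peg3, Mest, Nnat and Plagl1. On the log2 scale the estimated-length set was higher by 1.21 for Peg3 and by 2.57 for Mest. Nnat fell by 1.11 and Plagl1 fell by 0.39 from the fixed-length to the estimated-length set. The share of all tested genes with such a call was not counted, so these calls are not read as a trait of the members. Markers of intermediate progenitors also moved with genotype: 3 of 4 rose (Eomes, Neurog2 and Btg2), and their summed level was 173 to 259 CPM in the controls and 407 to 512 CPM in the mutants. Of 7 radial glia markers, Pax6 and Sox2 rose while Slc1a3, Fabp7 and Vim fell, with sums of 107 to 237 CPM in the controls and 92.0 to 205 CPM in the mutants. The sums for endothelial, mural, meningeal and microglial cells and for choroid plexus were at most 4.47 CPM in any library, with the microglial marker Ptprc at 0 throughout. Erythroid markers summed to at most 20.8 CPM, while Cajal-Retzius markers summed to 199.5 to 724 CPM in the controls and 243 to 699 CPM in the mutants. Interneuron markers summed to 0.572 to 2.35 CPM in the controls and 1.87 to 2.37 CPM in the mutants. Single markers of endothelial (Kdr), mural (Cspg4), meningeal (Pdgfra) and Cajal-Retzius cells (Ebf3) and of interneurons (Dlx5) rose. Of the 6 fits that left a library out, Ebf3 was called in 6, Kdr in 5, Pdgfra and Dlx5 in 3 and Cspg4 in 0. Without the set term, edgeR did not call Ebf3 (adjusted p = 0.0744), Dlx5 (0.119) or Cspg4 (0.996). Without the set term the calls of Eomes (adjusted p = 0.308), Btg2 (0.238), Fabp7 (0.934) and Vim (0.998) were lost, while those of Neurog2, Pax6, Sox2 and Slc1a3 held. The part of these cells in the results for the imprinted genes was not tested.

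The transcript models of the 10 genes numbered 73, of which 37 were tested singly and 4 were called, beside 1.4% of all transcripts tested. They were Plagl1-202 (log2 fold change 2.71), Grb10-201 (1.52), Nnat-202 (1.43) and Mest-202 (2.82, adjusted p = 0.02). Plagl1-202 held 82.9% to 98.0% of the counts of its gene in each library. Grb10-201, from the upstream start, held 72.8% to 95.7%. Grb10-203, whose start lies 9430 bases downstream, held 27.2%, 1.85% and 5.28% in the controls and 26.9%, 12.5% and 1.74% in the mutants. The share was high in the fixed-length libraries of both genotypes and low in the others, so it followed the technical set, and the model itself was not called (log2 fold change 0.75, adjusted p = 0.73). For Mest the leading model, Mest-211, held between 34.1% and 85.2%.

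**Figure D3:**
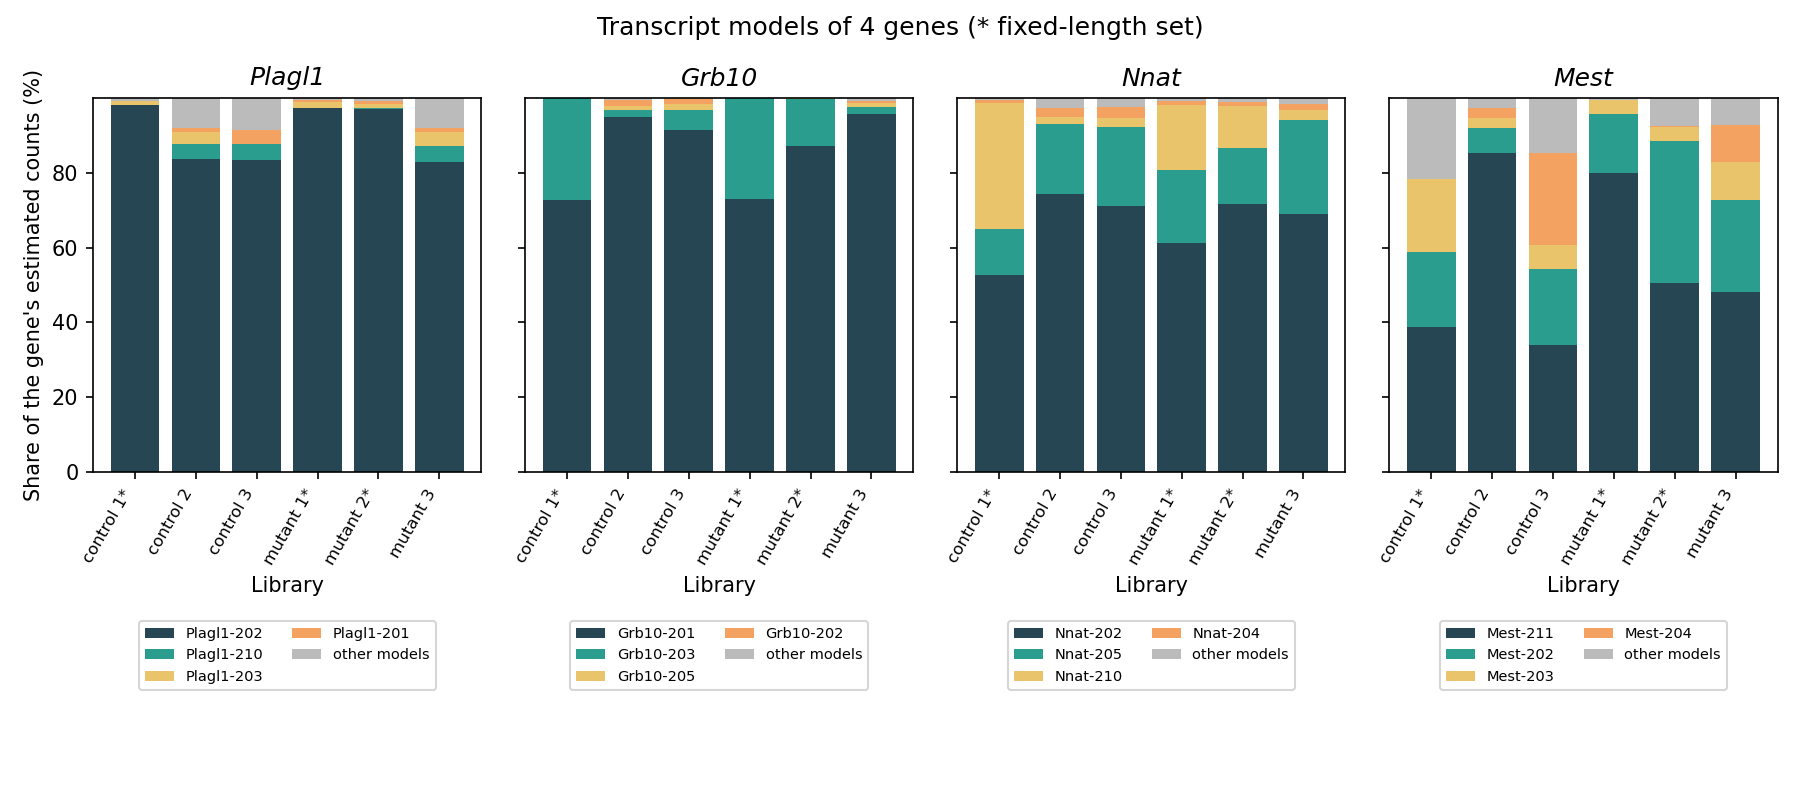
Share of the estimated counts of Plagl1, Grb10, Nnat and Mest assigned to each leading transcript model, one stacked bar per library, with libraries of the fixed-length set starred. Plagl1-202 and Grb10-201 lead in every library, and Grb10-203 takes its 3 largest shares in the starred libraries.

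Neighbours of the members within the same imprinted regions were described next, in groupings chosen after values were seen. Blcap, whose span contains Nnat on the opposite strand with 0 shared exonic bases, was at 103, 55.8 and 53.7 CPM in the controls and 207, 176 and 82.7 CPM in the mutants. It rose with a log2 fold change of 0.75 ± 0.11 (adjusted p = 0.00547), and lost the call without control 1 (adjusted p = 0.0592) and without the set term (0.459). Usp29, a ubiquitin protease gene that starts 164 bases from Peg3 on the opposite strand, was at 18.0, 45.6 and 44.2 CPM in the controls and 12.6, 12.3 and 26.6 CPM in the mutants. Control 1 lay under mutant 3, but within each set the mutants were lower, and Usp29 fell by 0.64 ± 0.09 on the log2 scale (adjusted p = 0.0046, and 0.609 without the set term). Peg3 itself did not pass in the same fit. Whether Usp29 and Peg3 differ in their response was not tested.

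Beside Ndn and Magel2, 2 of 4 tested neighbours were called, in opposite directions, where 14.9% of all genes were called. Peg12 rose from 7.45 ± 1.18 to 13.98 ± 2.38 CPM (a difference of 0.83 on the log2 scale, adjusted p = 0.0193), a call lost when control 1, control 2, control 3 or mutant 3 was left out (adjusted p 0.0681 to 0.152) or when the set term was (0.164). Snrpn, which encodes a spliceosomal protein of neurons, fell by 0.60 ± 0.10 on the log2 scale (adjusted p = 0.00924), with 406, 169 and 151 CPM in the controls and 299, 273 and 98.5 CPM in the mutants. The Snrpn groups overlapped across sets, and its call was lost without control 1 (adjusted p = 0.0516), mutant 3 (0.089) or the set term (0.997). Mkrn3 had a log2 fold change of -0.01 and Ube3a of -0.45, and neither was called. Around Cdkn1c, 1 of 5 tested neighbours was called: Osbpl5, a lipid transfer protein gene, rose from 37.9 ± 3.70 to 58.6 ± 8.14 CPM (adjusted p = 0.00435, 0.054 without mutant 3 and 0.232 without the set term). Slc22a18, an organic cation transporter gene at or under 0.251 CPM in every library, had a log2 fold change of 1.12 ± 0.69 and was not called (adjusted p = 0.333). Nap1l4, Tssc4 and Cd81 had log2 fold changes of 0.03, -0.03 and -0.00134. Around Grb10, neither Ddc nor Cobl was called, and neither exceeded 1.68 CPM in any library.

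**Figure D4:**
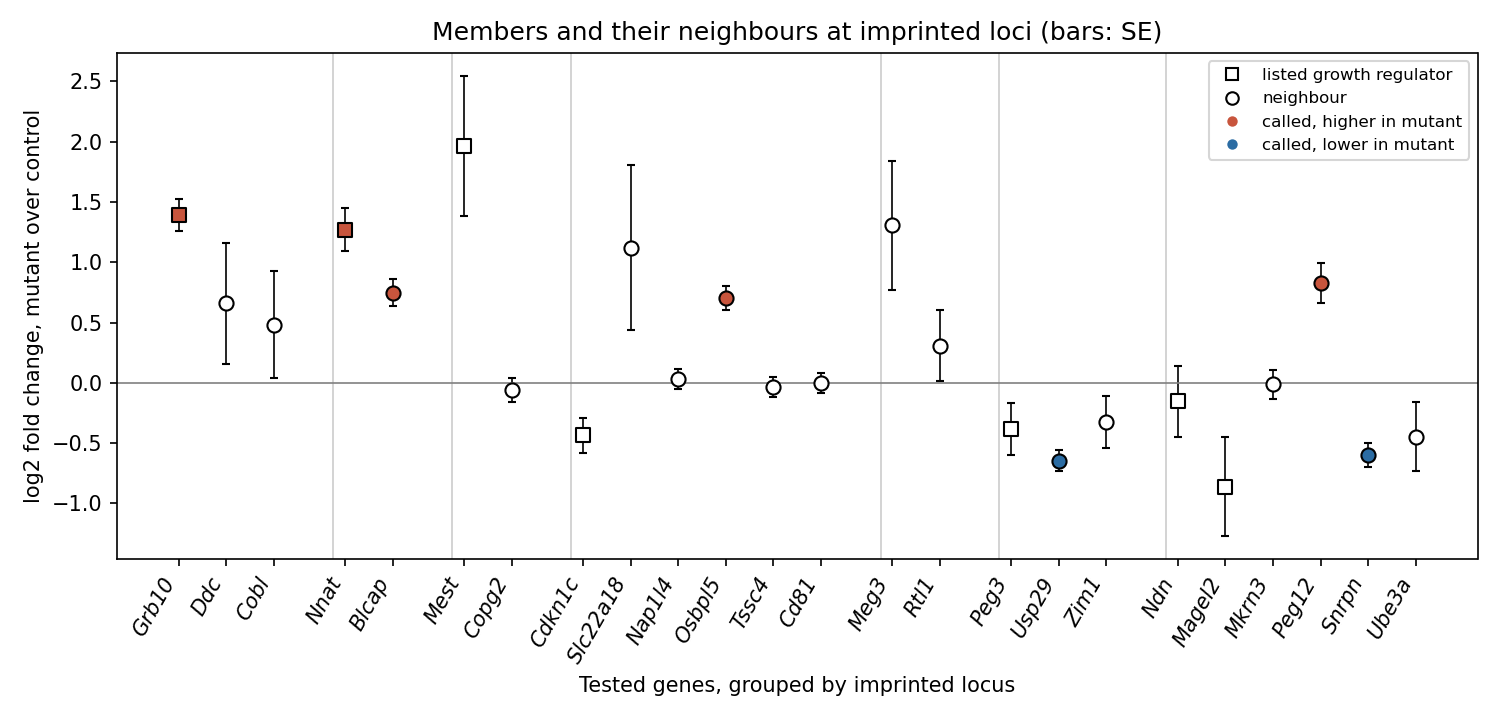
Log2 fold change (with SE) of tested genes in the imprinted regions with a tested neighbour, grouped by region, with squares for the listed growth regulators, circles for neighbours and filled symbols for called genes. Within the Cdkn1c region Osbpl5 lies above 0 with a narrow bar, Slc22a18 above 0 with a wide one and Nap1l4, Tssc4 and Cd81 near 0, and in the Ndn and Magel2 region Peg12 and Snrpn lie on opposite sides.

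Among 64 other imprinted genes, 56 were in the files, 45 were tested and 11 were called (24.4%, beside 14.9% of all genes), of which 8 rose and 3 fell. Their median log2 fold change was 0.12. This list, like the members, was chosen with earlier results of these data known. None of the 11 was called without the set term, where the edgeR test called 400 genes, and 4 were called whichever library was left out: Nap1l5, Pon2, Zdbf2 and Usp29. Nap1l5, a nucleosome assembly protein gene, rose from 31.4 ± 14.2 to 106 ± 41.6 CPM (a log2 difference of 1.41 ± 0.10, adjusted p = 0.000316). Pon2, a paraoxonase gene, rose from 0.526 ± 0.290 to 3.67 ± 0.772 CPM (3.04 ± 0.38, adjusted p = 0.00272). Zdbf2 rose from 51.8 ± 20.3 to 75.4 ± 42.4 CPM (0.91 ± 0.11, adjusted p = 0.00281). The growth factor gene Igf2, a classic imprinted gene, was at 0.934 ± 0.167 CPM in the controls and 0.938 ± 0.213 CPM in the mutants and missed the threshold (adjusted p = 0.896).

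Partners and relatives of the members formed 7 lists with 71 genes, of which 66 were tested and 20 called (30.3%, beside 14.9% of all genes), with 14 higher and 6 lower (7.92% and 7.01% of all genes). The median log2 fold change was 0.18. The lists were chosen with earlier results of these data known. Their shares, here and in each list below, are thus no independent comparison with all genes. Of the 20, 5 were also called without the set term (Irs4, Igfbp3, Grb14, Adcyap1r1 and Fn1), where 2.36% of all genes were called; the other 15 were not. Those 5 and Igfbp4, Irs1 and Socs3 were called whichever library was left out.

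Of the 6 genes listed as PLAG family or as linked to Plagl1, 2 rose and 0 fell (33.3% called, beside 14.9% of all genes). Adcyap1r1, the PACAP receptor gene, was at 128, 112 and 107 CPM in the controls and 681, 584 and 434 CPM in the mutants. The groups were far apart, and Adcyap1r1 rose 4.42-fold (log2 fold change 2.14 ± 0.12, edgeR adjusted p = 0.000102). Among the mutants its libraries had the same order as for Plagl1, an order also found for Nnat, Blcap and Snrpn. Socs3, an inhibitor of cytokine signals, rose from 12.8 ± 0.548 to 22.7 ± 1.12 CPM (0.84 ± 0.10, adjusted p = 0.00247, and 0.0647 without the set term).

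Partners of Grb10 in insulin and IGF signalling had 15 tested genes, of which 5 rose and 1 fell, with a median of 0.37. These 6 made up 40% of the list, beside 14.9% called among all genes, and 3 of them were called without the set term. Irs4, an insulin receptor substrate gene, rose from 0.0413 ± 0.00832 to 6.12 ± 1.08 CPM (6.37 ± 0.24, adjusted p = 3.41e-05). All 3 control libraries held 3 counts or fewer of Irs4, so the fitted fold depends on the prior count. The IGF-binding protein genes Igfbp3 and Igfbp4 rose from 19.4 ± 4.90 to 176 ± 11.1 CPM (3.12 ± 0.15) and from 30.5 ± 11.01 to 146 ± 51.8 CPM (1.93 ± 0.08). Igfbp4 had an adjusted p of 5.67e-05, and of 0.0555 without the set term. The receptor gene Igf1r was not called (-0.02, adjusted p = 0.955).

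Partners of Cdkn1c, the other CDK inhibitors and the G1 cyclins and kinases, had 3 of 13 tested genes higher and 0 lower (23.1% called, beside 14.9% of all genes), and none of the 3 was called by edgeR without the set term (adjusted p 0.378 to 0.592). Ccnd2, a G1 cyclin gene, rose from 60.3 ± 28.6 to 121 ± 45.6 CPM (0.67 ± 0.11, adjusted p = 0.00905), and was not called without control 1 (0.066) or mutant 3 (0.09). Cdkn1a, which encodes p21, rose from 1.82 ± 0.985 to 4.52 ± 1.77 CPM (adjusted p = 0.0181). That call was lost without control 1, control 2, control 3 or mutant 3 (0.0785 to 0.109). Cdkn2c was called at under 1 CPM and lost the call whichever library was left out.

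Of the 12 MAGE genes and necdin partners, 2 were called (16.7%, near the 14.9% of all genes), and neither was without the set term. Both rose: E2f1, the cell-cycle factor that necdin binds, from 9.42 ± 5.78 to 21.3 ± 10.1 CPM (adjusted p = 0.00739, and 0.0621 without control 1), and Mageh1 (log2 fold change 0.39, adjusted p = 0.0307), which stayed called in only 1 of the 6 fits that left a library out. Of the 6 Peg3 partners, 2 were called (33.3%, beside 14.9% of all genes), and neither was without the set term. Siah1a (-0.36) and Bax (-0.31) fell with edgeR adjusted p of 0.0478 and 0.0486. Each stayed called in only 1 of those 6 fits, and Bax had the opposite sign without the set term (0.15). Of 6 tested genes of the GCN2 pathway, in which Impact acts, 2 fell (33.3%, beside 14.9% of all genes called), and neither was called without the set term. Atf4, the stress-response factor of that pathway, fell by 0.55 ± 0.08 on the log2 scale (adjusted p = 0.00606, and 0.0837 without control 1 or 0.0587 without mutant 3). Eif2s1 had -0.40 ± 0.09 (adjusted p = 0.0322) and was called in 2 of the 6.

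Partners of Dlk1, Nnat and Mest had 3 of 8 tested genes called (37.5%, beside 14.9% of all genes), and only Fn1 was called without the set term. Fn1, the fibronectin gene, fell from 29.4 ± 4.90 to 4.796 ± 1.37 CPM (-2.60 ± 0.25, adjusted p = 0.000979). Notch1 had 0.0318, 0.566 and 0.403 CPM in the controls and 2.91, 0.505 and 10.2 CPM in the mutants. Mutant 2 lay among the controls, and the call (4.34 ± 0.71, adjusted p = 0.00875) was lost without mutant 3 (0.114). Lrp5 rose by 0.50 on the log2 scale (adjusted p = 0.0146), and was called in 2 of the 6 fits. The calcium pump gene Atp2a2 was not called (0.03, adjusted p = 0.888).

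**Figure D5:**
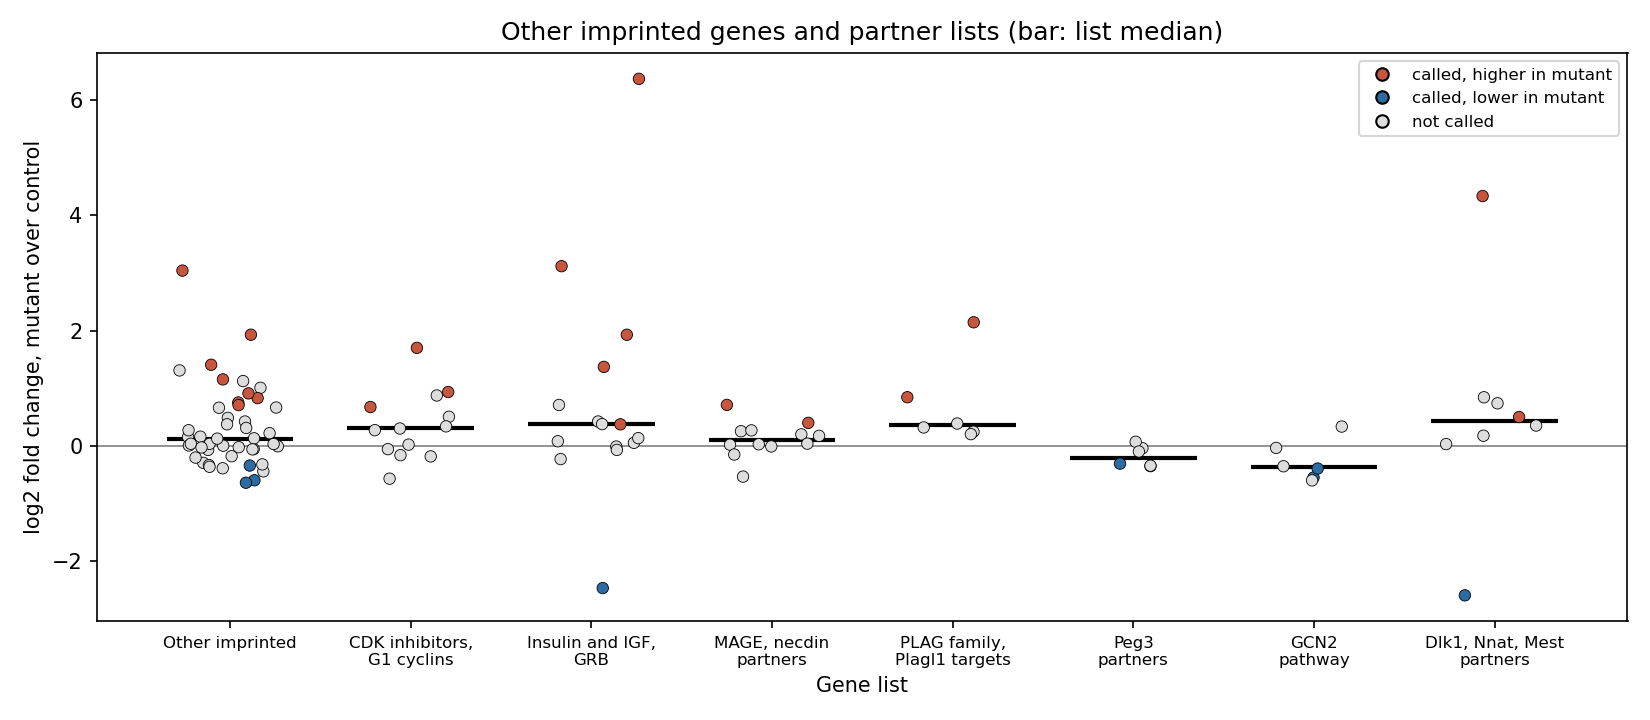
Log2 fold change of each tested gene among the other imprinted genes and in the 7 partner lists, 1 point per gene with called genes in colour and a bar at the list median. The medians lie between -0.38 for the GCN2 pathway and 0.42 for the partners of Dlk1, Nnat and Mest.

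The protein-coding genes whose log2 CPM over the 6 libraries was most like that of Plagl1 were Chst15, a chondroitin sulfotransferase gene (Pearson r = 0.9997), Adcyap1r1 (0.999) and Tcim (0.999). Chst15 was at 139, 136 and 136 CPM in the controls and 206, 202 and 191 CPM in the mutants. Tcim, a small regulator of Wnt signalling, was at 8.14, 6.49 and 7.30 CPM and at 68.6, 58.3 and 44.2 CPM. These are descriptions over 6 libraries that share their genotype and technical set: 735 of 14216 protein-coding genes had an r above 0.9 with Plagl1.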

How the data were processed

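RNA was sequenced from 6 libraries of E14.5 mouse cortical neurons with a stranded total RNA kit, per the labels' protocols. FastQC, kallisto and the mm9 build are named, without versions, per the submitters' processing notes. Per the file headers, the authors deposited for each of 97251 transcripts an estimated count, which is not normalized, a TPM value, scaled for length and total, and the length and effective length in bases. Of these transcripts, 84637 (87.0%) matched GENCODE vM21 symbols. The others held 6.85% to 8.58% of the counts of a library and were left out.

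Estimated counts were summed to genes, rounded and tested with the edgeR (4.0.16, R 4.3.3) quasi-likelihood test, with TMM factors, filterByExpr defaults, a prior count of 2, and genotype and technical set as terms. Benjamini-Hochberg adjustment covered all tested genes, with a threshold of 0.05, and an SE is the log2 fold change divided by the square root of F. Library sizes were normalized for CPM. Effects within a set came from 1 fit with 4 groups and a pooled spread, in which a lone library is assumed to vary like the others. The tests were run on simulated data first. Scaling, filter, DESeq2 (1.42.0), limma (3.58.1) on log2(TPM + 0.1) and log2(TPM + 1), and leave-one-out fits were alternatives.

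Genes were named by rule: all members, Zbtb18, up to 8 called other imprinted genes and up to 3 called genes of each other list with the smallest p, or where none was called the one with the highest mean, and 3 genes most like Plagl1 in pattern. Igf2, Igf1r, Atp2a2, Irs1, the locus neighbours and the markers are named beside these. Members and lists were chosen with earlier results of these data known, and the grouping of loci after values were seen. Promoters came from RefSeq (GRCm38.p6), whose build differs from the mm9 named by the submitters. No coordinates were converted.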

Additional observations from a re-analysis of the deposited data

How the results depend on the processing

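Plagl1 and Grb10 stayed called in the same direction under all 17 alternatives, with log2 fold changes from 2.46 to 2.90 and from 1.18 to 1.499. The 17 are not all separate. Leaving out mutant 3 largely repeats the comparison within the fixed-length set, and leaving out control 1 that within the estimated-length set. Nnat lost its call without the set term (adjusted p = 0.371), within the fixed-length set (0.0579), without mutant 3 (0.0639) and in limma with a TPM pseudocount of 1 (0.0607). The 3 imprinted growth regulators called became 5 without the low-count filter and 5 with DESeq2, and ranged from 2 to 5 when a library was left out. The genes gained in the first and second case were Mest (adjusted p = 0.000398 and 0.0345) and Cdkn1c (0.0257 and 0.013), and limma on TPM also called Mest (0.00138 and 0.00738). The 11 other imprinted genes called became 0 without the set term and ranged from 5 to 11 over left-out libraries, and the 20 partner genes became 5 and ranged from 9 to 25. Over all genes, the 2537 called became 400 without the set term and 3879 with DESeq2, and ranged from 1294 (without control 1) to 3034 (without mutant 2). The share of called genes that were higher was 53.1% in the fit reported, 67.5% without the term and 43.6% with DESeq2. The causes of these shifts were not tested. Reversals of sign occurred for Ndn, with 0.1562 without the set term, 0.1109 without control 2, 0.32 without mutant 3 and 0.3193 within the fixed-length set (its range over left-out libraries was -0.6068 to 0.32), and for Impact, with -0.0455 without mutant 2 and -0.0034 within the estimated-length set (range -0.0455 to 0.3235). No paired analysis was possible because the labels give the genotypes no shared replicate numbers. Few counts make the values of Dlk1 and of genes under about 1 CPM less certain, called or not.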

Other observations

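Intron-retaining models of Peg3 held 0.121%, 15.01% and 14.7% of the counts of the gene in controls 1 to 3 and 0.317%, 0.714% and 13.3% in mutants 1 to 3. For Plagl1 the shares were 0.102%, 5.82% and 6.01% in the controls and 0.130%, 0.476% and 6.15% in the mutants. Both genes had low shares in each fixed-length library and higher shares in each estimated-length library, whatever the genotype.

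The noncoding imprinted genes H19 and Meg3 did not pass the test. H19, a maternally read RNA, was at 0.834 ± 0.297 CPM in the controls and 1.63 ± 0.514 CPM in the mutants (SD, n = 3 each; edgeR adjusted p = 0.103). Meg3, the maternally read RNA beside Dlk1, was at 6.99, 46.9 and 47.7 CPM in the controls and 19.7, 49.5 and 64.2 CPM in the mutants (log2 fold change 1.31, edgeR adjusted p = 0.162).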
